A study of Bos grunniens x Bos taurus and Bos grunniens with 6 samples.

Results

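The kinesin family was taken as every gene of the deposited expression table whose symbol, in capitals, begins with KIF and a number or KIFC and a number, or is KIFAP3, KIFBP or KLC1 to KLC4. This gave 52 genes out of 18918, under 47 symbols. The testis tissue came from 3 F1 cattle-yak (TES5, TES6 and TES7), born to Gannan yak cows and sired by Jersey cattle, and from 3 Gannan yak (Yak8, Yak9 and Yak10), all of them males of 4 years, with 1 library per animal. The cattle-yak lived in Xiahe County and the yak in Linxia County. The testes of cattle-yak were removed by castration and, per the study's methods, those of yak after euthanasia, although the labels name castration for every sample. County, mode of collection and cross therefore cannot be told apart. F1 males of this cross are sterile and the yak are fertile, and the comparison asks how the kinesin genes differ between such testes.

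Kinesins are motors that use ATP to move along microtubules, most of them toward the plus end, or to take microtubules apart at their ends. Kinesin-1 is built of heavy chains (KIF5A, KIF5B, KIF5C) and light chains (KLC1 to KLC4) and hauls organelles, vesicles and RNA. Kinesin-2 (KIF3A, KIF3B or KIF3C with KIFAP3, and KIF17 on its own) carries cargo into cilia and into the growing sperm flagellum. A second set of kinesins (KIF11, KIF2C, KIF18A, KIF20A, KIF23 and others) builds the spindle and cuts the dividing cell apart, in mitosis as well as in meiosis.

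Levels are given in FPKM, the fragments per kilobase of a gene model and per depth of the library, so that genes of different length can be set side by side. Between 11175100 and 13136128 fragments on genes stood behind a library, with more of them in each yak library, and 1 fragment on 1 kb was worth 0.0761 to 0.0895 FPKM. The groups were compared with limma on log2 (FPKM + 1) over the 15042 genes with a mean of at least 0.5 FPKM, among them 47 of the 52 kinesin genes. A gene is called lower or higher at a Benjamini-Hochberg adjusted p under 0.05 together with a log2 fold change, cattle-yak over yak, beyond 1 in size. The tissue was checked against marker lists: the summed FPKM of 4 round spermatid markers was 8.36 to 36.1 in the cattle-yak and 652 to 669 in the yak, that of 7 elongating spermatid markers 19.6 to 90.6 against 9654 to 11726, that of 9 spermatocyte markers 208 to 356 against 449 to 463, and that of 9 Sertoli cell markers 1612 to 1779 against 408 to 423. No marker of these lists stood at 0 in a library. In whole tissue, fewer cells of a type and less RNA per cell cannot be told apart, and this holds for every value below.

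Of the 47 kinesin genes tested, 16 were called lower in cattle-yak and 8 higher, and 23 were not called. As a share this was 34.0% lower and 17.0% higher, where 20.8% of all tested genes were called lower, 33.4% higher and 54.2% in either direction. The median log2 fold change was −0.02 over the kinesin genes and 0.51 over all tested genes. The 3 cattle-yak values lay wholly above or below the 3 yak values in 36 of the 47 kinesin genes. This was a smaller share than the 84.1% of all tested genes. Among the genes not called, 14 had an adjusted p under 0.05 with a smaller change, 4 of them toward lower and 10 toward higher values. The 16 lower genes ranged widely, with falls beyond 4 on the log2 scale in 3 of them, from 2 to 4 in 9 and from 1 to 2 in the other 4. Scaling by median-of-ratios size factors moved the median of all tested genes from 0.51 to 0.01. With it 18 kinesin genes were lower and 2 higher, against 4176 lower and 2660 higher of all 15042 tested genes. Centred on the Sertoli markers (median of all genes −1.62), 41 kinesin genes were lower and 0 higher, against 10657 and 39 of all tested genes.

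**Figure D1:**
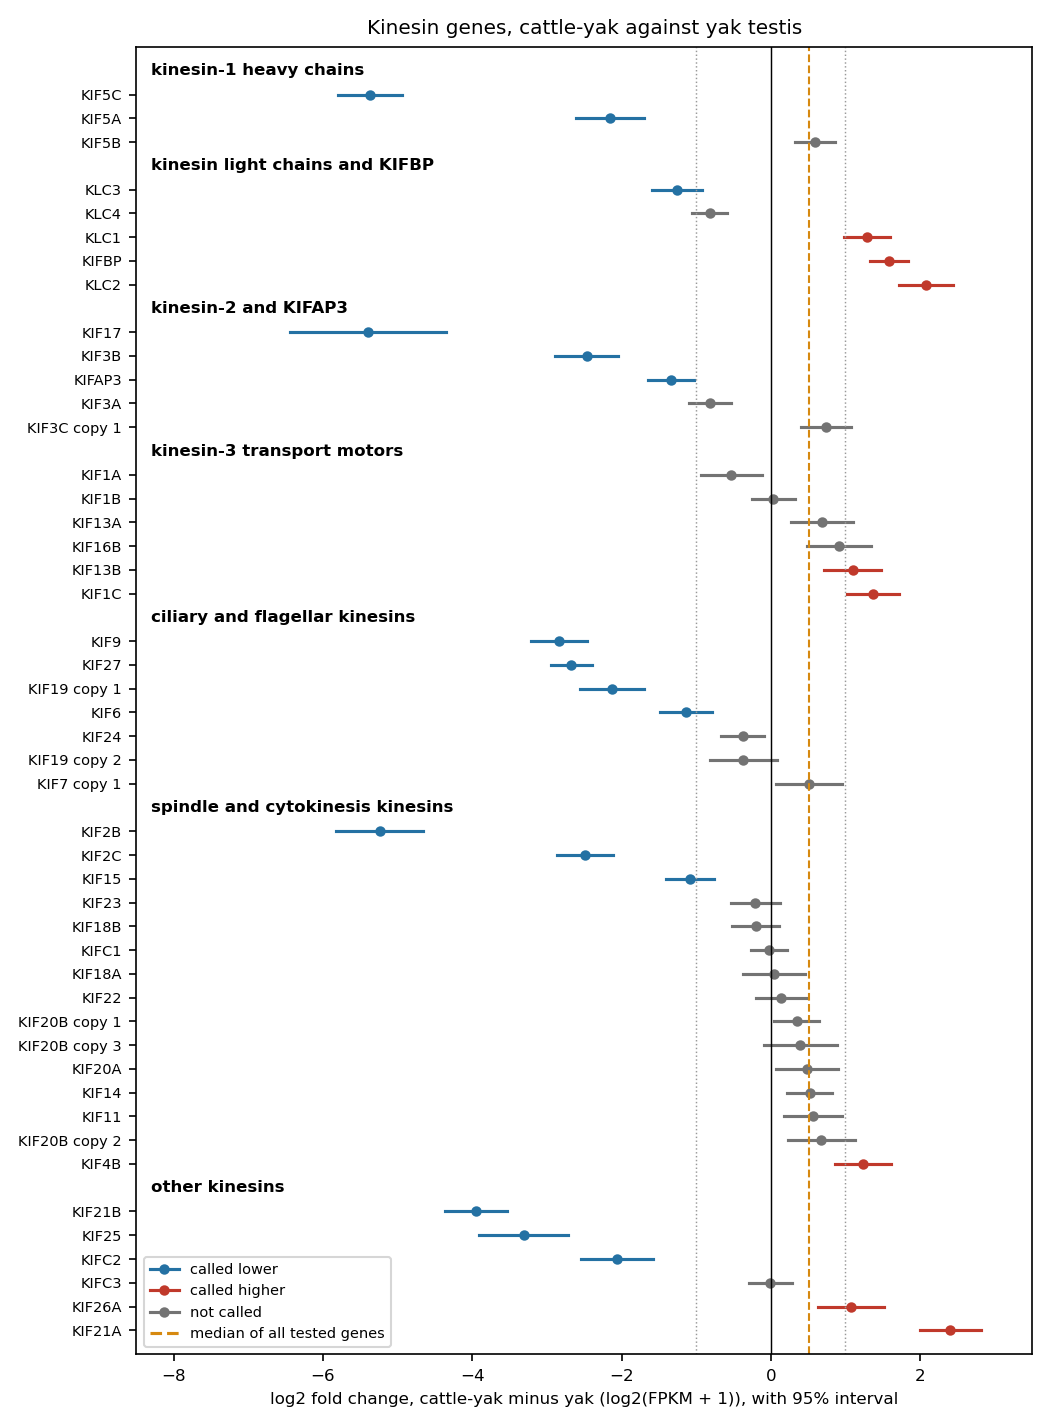
Log2 (foldchange), cattle-yak minus yak, of the 47 tested kinesin genes by role, with the 95% interval as a bar, the calls in colour, dotted lines at −1 and 1 and a dashed line at the median of all tested genes (0.51). The points run from −5.39 (KIF17) to 2.41 (KIF21A), and copy 1 of a symbol is its gene with the highest mean over the 6 animals.

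The kinesin genes together summed to 892 ± 64.0 FPKM (SD, n = 3) in the cattle-yak and 1917 ± 44.6 in the yak, or 0.150% ± 0.00961 and 0.319% ± 0.00539 of the summed FPKM of a library. KIF17 took 24.9% of this sum in yak and 1.38% in cattle-yak. Without KIF17 the sums were 879 ± 59.2 and 1440.4 ± 59.6 FPKM. Every cattle-yak animal lay below every yak animal in each of these sums, and the exact permutation test (two-sided) gave p = 0.1, the smallest p that 3 animals against 3 allow. In yak 11 kinesin genes had a mean of at least 50 FPKM, against 4 in cattle-yak. The order also differed: KIF17, KIF5C, KIF3B, KIF2C and KIF2B led in yak with 477, 176, 162, 144 and 92.3 FPKM, whereas KLC2, KIF5B, KIFBP and KIF22 led in cattle-yak with 122, 107, 91.9 and 52.0 FPKM. KIF5B and KIF22 were also above 40 FPKM in every yak library.

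KIF17 (ENSBGRG00000000228), the kinesin-2 motor that works as a homodimer, was the most abundant kinesin gene of the yak testis and ranked 139 among all genes there. In germ cells after meiosis a form of KIF17 is known to move FHL5, a partner of the transcription factor CREM, out of the nucleus. The level of KIF17 was 463 FPKM in Yak8, 497 in Yak9 and 471 in Yak10, and 21.8 in TES5, 11.6 in TES6 and 4.08 in TES7. The yak values lay close together and far above the cattle-yak values, which themselves spread 5.36-fold from TES7 to TES5. The group means differed 38.1-fold, with a log2 fold change of −5.39 (standard error, SE, 0.45, and limma adjusted p = 1.05e-05). On this scale it was the largest fall among the tested kinesin genes, within its standard error of those of KIF5C and KIF2B, and it had the largest standard error. FHL5 went from 68.5 ± 12.9 FPKM in yak to 0.483 ± 0.563 in cattle-yak (SD, n = 3), with a log2 fold change of −5.60, and CREM had −4.14. Of the 8 tested partners of KIF17, KIF7 and KIF24, these 2 were called lower, and GLI1 (2.17) and SUFU (1.15), both of the hedgehog pathway, were called higher. That was 25% each way, against 20.8% lower and 33.4% higher of all tested genes.

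Of the heterotrimeric kinesin-2, KIF3B and KIFAP3 fell as well, whereas KIF3A was not called. KIF3B had 175, 178 and 134.5 FPKM in Yak8, Yak9 and Yak10, and 34.7, 29.9 and 21.7 in TES5, TES6 and TES7. The groups were far apart, with a 5.64-fold difference and a log2 fold change of −2.47 (SE 0.18, limma adjusted p = 5.18e-06). KIF3A, the motor it pairs with, had 34.4, 30.6 and 35.1 FPKM in the yak and 21.4, 16.9 and 17.6 in the cattle-yak. These values did not overlap either, but the log2 fold change of −0.81 (limma adjusted p = 3.31e-04) stayed short of the threshold, and it passed it (−1.40) with median-of-ratios scaling. KIFAP3, the subunit that links the motor pair to cargo, had 63.0, 51.7 and 69.0 FPKM in the yak and 25.5, 20.8 and 24.3 in the cattle-yak. Its log2 fold change was −1.34 (SE 0.13, limma adjusted p = 2.95e-05). So of the 5 tested genes of this group 3 were called lower (60%, against 20.8% of all tested genes) and none higher.

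KIF3C, which can take the place of KIF3B as the partner of KIF3A, had 4.27 ± 0.187 FPKM in the cattle-yak and 2.17 ± 0.318 in the yak (SD, n = 3), a log2 fold change of 0.73 (limma adjusted p = 1.54e-03) that was not called. Within a library, KIF17 made up 68.7% to 73.2% of the FPKM of the 4 kinesin-2 motors in yak and 8.59% to 26.5% in cattle-yak. KIF3A made up 4.96% ± 0.577 of this sum in the yak (SD, n = 3) and 30.01% ± 6.17 in the cattle-yak, although its own level was the lower one there. KIF3B had 24.0% ± 2.69 in the yak and 45.2% ± 2.75 in the cattle-yak. Shares within a library do not depend on the scaling between libraries, but the shares of a set add up to 100% and are not independent. Across 28 sums and shares of kinesin genes the groups never overlapped, each with exact permutation p = 0.1 (two-sided, also 0.1 after Benjamini-Hochberg adjustment), the smallest possible. Shares of the whole kinesin sum were taken only for genes that reached a set share of it in at least 1 library. Each of them reached it in 1 group only, as KIF2B did in Yak8 (5.02%). For these shares the lack of overlap was thus largely fixed by the choice and is no support. The 28 values also hold genes in common, so their number is not independent support. Among single genes, 84.1% of all tested did not overlap.

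The heavy chains of kinesin-1 changed unequally. KIF5C (ENSBGRG00000005336), a heavy chain known best from neurons, had 178, 157 and 192 FPKM in Yak8, Yak9 and Yak10 and 4.34, 3.48 and 2.24 in TES5, TES6 and TES7. It was the second most abundant kinesin gene in yak and ranked 34 among the 52 in cattle-yak, 52.4-fold lower, with a log2 fold change of −5.37 (SE 0.19, limma adjusted p = 1.66e-07). KIF5A, also a neuronal heavy chain, was far less abundant, with 8.79, 6.98 and 5.11 FPKM in the yak and 0.809, 0.605 and 0.849 in the cattle-yak, where 24 to 35 fragments stood behind a value. It too was called lower, with a log2 fold change of −2.16 (limma adjusted p = 1.66e-05). KIF5B, the heavy chain found in most cell types, had 68.8, 67.4 and 73.5 FPKM in the yak and 122, 93.0 and 105 in the cattle-yak. The cattle-yak values all lay above the yak values, but the log2 fold change of 0.59 (SE 0.12, limma adjusted p = 1.45e-03) was under the threshold of 1, near the median of all tested genes (0.51), and −0.02 with median-of-ratios scaling.

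As a share of the 3 heavy chains, KIF5C therefore made up 69.5% ± 1.59 in the yak and 3.02% ± 0.825 in the cattle-yak (SD, n = 3), and KIF5B 27.7% ± 1.26 and 96.3% ± 0.733. KIF5A had 2.78% ± 0.799 in the yak and 0.682% ± 0.0926 in the cattle-yak. The narrow spread of these shares within a group stood against a difference of 68.6 percentage points for KIF5B. With fragments in place of FPKM, which do not correct for gene length, that difference was 75.7 percentage points.

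The light chains changed in both directions. KLC2 had 116, 129.8 and 121 FPKM in TES5, TES6 and TES7 and 21.9, 30.1 and 33.7 in Yak8, Yak9 and Yak10, and KLC1 had 22.1, 26.9 and 22.5 FPKM in the cattle-yak and 9.27, 8.09 and 10.1 in the yak. Both were higher in every cattle-yak animal, with a log2 fold change of 2.08 (SE 0.15, limma adjusted p = 5.28e-06) for KLC2 and of 1.29 (adjusted p = 3.3e-05) for KLC1. The gene model of KLC2 recovered from the FPKM steps was only 393 bases long, with 113 to 172 fragments in a yak library and 541 to 570 in a cattle-yak library, so its rank by FPKM rests on a short model. KLC3, a light chain known from the sperm tail, went the other way, with 22.3, 30.2 and 30.6 FPKM in the yak and 10.1, 11.0 and 11.6 in the cattle-yak. Its log2 fold change was −1.26 (limma adjusted p = 6.99e-05). KLC4 had 20.1 ± 0.418 FPKM in the yak and 11.0 ± 0.202 in the cattle-yak (SD, n = 3), and its log2 fold change of −0.82 (limma adjusted p = 1.02e-04) was not called, though it passed the threshold (−1.40) with median-of-ratios scaling. KIFBP, which binds several kinesin motor domains and keeps them off the microtubule, had 90.9, 86.1 and 98.6 FPKM in TES5, TES6 and TES7 and 31.5, 26.4 and 32.1 in Yak8, Yak9 and Yak10. It was called higher, at 3.06-fold, with a log2 fold change of 1.59 (SE 0.11, limma adjusted p = 3.8e-06), which fell to 0.98 with median-of-ratios scaling.

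In yak KLC2, KLC3 and KLC4 took most of the light chain FPKM, with 33.1% ± 3.12, 32.3% ± 1.92 and 23.8% ± 3.38 (SD, n = 3). In cattle-yak KLC2 alone took 72.8% ± 0.218, and KLC3 and KLC4 were left with 6.50% ± 0.445 and 6.54% ± 0.330. KLC1 had the smallest difference, with 14.1% ± 0.792 in cattle-yak and 10.8% ± 1.74 in yak. The short model of KLC2 matters here, since with fragments in place of FPKM the difference of KLC2 was 18.3 percentage points instead of 39.7, and that of KLC1 23.8 instead of 3.33. Of 17 genes that link kinesin-1 to cargo or activate it, 8 were called higher (47.1%) and 3 lower (17.6%), with a median log2 fold change of 0.90. Of all tested genes 33.4% were called higher and 20.8% lower. The largest rise among the 17 was that of FEZ2 (2.49), an adaptor, and the largest fall that of KTN1 (−1.88), which encodes the kinesin receptor kinectin.

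**Figure D2:**
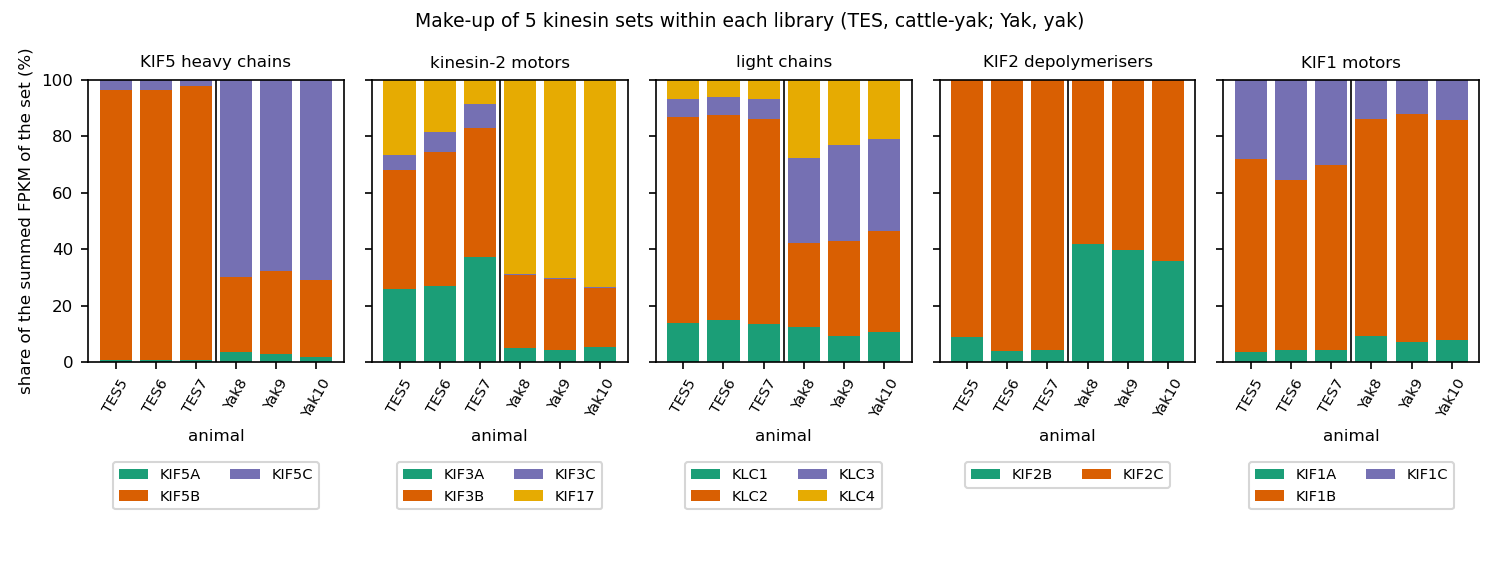
Share of each gene in the summed FPKM of its set (%), in 1 stacked bar per animal, for 5 sets of kinesin genes, with cattle-yak (TES) to the left and yak to the right of the line. KIF5B fills 95.8% to 97.1% of the heavy chain bars in cattle-yak and KIF5C 67.8% to 71.0% in yak.

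Motors of cilia and flagella were lower or not called. KIF9, needed for the beat of the sperm flagellum, had 57.8, 53.7 and 57.5 FPKM in Yak8, Yak9 and Yak10 and 9.01, 7.03 and 5.41 in TES5, TES6 and TES7. The fall was 7.88-fold, with a log2 fold change of −2.84 (SE 0.16, limma adjusted p = 1.44e-06). KIF27, related to KIF7 and tied to the building of motile cilia, had 82.7, 68.6 and 79.4 FPKM in the yak and 12.1, 11.6 and 9.95 in the cattle-yak. Its values were even within each group, and the log2 fold change was −2.67 (SE 0.12, limma adjusted p = 4.5e-07). KIF6, a close relative of KIF9, was scarce in both groups, with 4.09, 4.73 and 4.53 FPKM in the yak and 1.82, 1.28 and 1.37 in the cattle-yak, and a log2 fold change of −1.14 (limma adjusted p = 1.64e-04).

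KIF19, which shortens the microtubules of motile cilia at their tips, stood on 2 genes, and how reads were split between them is uncertain. The gene that was the more abundant in yak (ENSBGRG00000023972) had 4.49, 6.44 and 4.01 FPKM in Yak8, Yak9 and Yak10 and 0.391, 0.414 and 0.249 in TES5, TES6 and TES7, where 5 to 8 fragments stood behind a value. It was called lower, with a log2 fold change of −2.13 (SE 0.19, limma adjusted p = 1.34e-05). The other gene (ENSBGRG00000012086) had 3.48, 2.29 and 2.81 FPKM in the yak and 2.18, 2.41 and 1.40 in the cattle-yak, where it was the higher of the pair in every animal. Here the groups overlapped, and the log2 fold change of −0.37 had a 95% interval from −0.82 to 0.08.

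KIF24 and KIF7, which act at the primary cilium, were not called. KIF24, which holds back cilium formation at the mother centriole, had 14.4, 15.2 and 13.8 FPKM in the yak and 11.8, 9.52 and 11.6 in the cattle-yak, a log2 fold change of −0.37 (limma adjusted p = 2.27e-02). KIF7, a regulator of hedgehog signalling at the cilium tip, had 2.49, 1.91 and 1.61 FPKM in Yak8, Yak9 and Yak10 and 3.38, 4.02 and 2.48 in TES5, TES6 and TES7. TES7 lay just below Yak8, so the groups overlapped, and the log2 fold change was 0.51 (limma adjusted p = 3.67e-02). Of the 7 tested genes of the ciliary and flagellar group 4 were called lower and 0 higher, with a median log2 fold change of −1.14. That was 57.1% lower, against 20.8% of all tested genes. In the GO terms deposited beside the values, 5 of the 16 kinesin genes called lower carried a term for the cilium, axoneme or flagellum (KIF17, KIF3B, KIFAP3, KIF19 and KIF27), against 0 of the 8 called higher and 4 of those not called. A term for the spindle or cytokinesis stood beside 5 of the 16 as well (KIF3B, KIF25, KIF15, KIF2B and KIF2C), beside 1 of the 8 (KIF4B) and beside 11 not called. Of all 505 tested genes with a term of the first kind 50.7% were called lower and 17.4% higher, and of all 423 with one of the second kind 21.5% and 30.7%. Nothing particular to kinesins is read from these counts.

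Most spindle and cytokinesis kinesins measured were not called, and the changes were large only in the KIF2 depolymerisers KIF2B and KIF2C. No gene stood under the symbols KIF2A or KIF4A, so neither is covered here. Of the 15 tested genes of this group, under 13 symbols, 3 were lower and 1 higher, with a median log2 fold change of 0.14. As shares this was 20% and 6.67%, against 20.8% and 33.4% of all tested genes. KIF2B (ENSBGRG00000020913), which removes tubulin from microtubule ends at kinetochores, had 96.5, 85.6 and 94.7 FPKM in Yak8, Yak9 and Yak10 and 2.83, 0.863 and 1.09 in TES5, TES6 and TES7. TES5 stood above the other cattle-yak animals, and 19 to 66 fragments lay behind the cattle-yak values. The fall was 57.8-fold, with a log2 fold change of −5.24 (SE 0.25, limma adjusted p = 6.26e-07). Its relative KIF2C, or MCAK, which corrects wrong kinetochore attachments, had 134, 129 and 169 FPKM in the yak and 29.4, 20.1 and 25.4 in the cattle-yak, a log2 fold change of −2.49 (SE 0.16, limma adjusted p = 2.51e-06). The share of KIF2B in the summed FPKM of the pair was 39.2% ± 3.08 in the yak and 5.67% ± 2.69 in the cattle-yak (SD, n = 3).

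KIF15, a tetramer that helps to keep the spindle bipolar, was the third gene of the group called lower. It had 61.3, 61.2 and 66.9 FPKM in Yak8, Yak9 and Yak10 and 31.1, 23.5 and 33.9 in TES5, TES6 and TES7. The log2 fold change of −1.09 (SE 0.14, limma adjusted p = 1.28e-04) lay near the threshold and was −0.94, and so not called, without TES6. KIF4B, a chromokinesin, was the gene called higher, with 11.2, 8.40 and 12.0 FPKM in the cattle-yak and 3.68, 4.25 and 3.66 in the yak. Its log2 fold change was 1.23 (SE 0.16, limma adjusted p = 1.39e-04), and 0.70 with median-of-ratios scaling.

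KIF11, KIF20A, KIF23, KIF18A and KIFC1 were not called. KIF11, the motor that pushes the spindle poles apart, had 24.0, 18.2 and 29.2 FPKM in TES5, TES6 and TES7 and 15.0, 16.2 and 15.3 in Yak8, Yak9 and Yak10. KIF20A, which works at the midzone in cytokinesis, had 40.9, 25.4 and 37.5 FPKM in the cattle-yak and 21.6, 24.2 and 26.2 in the yak, where Yak10 lay above TES6. The log2 fold change was 0.57 (95% interval 0.18 to 0.95) for KIF11 and 0.49 (0.07 to 0.90) for KIF20A, both about the median of all tested genes, and −0.02 and −0.11 with median-of-ratios scaling. TES6 was the lowest cattle-yak animal for both, as it was for KIF15 and KIF4B. KIF23, the motor of the centralspindlin complex, had 23.2, 17.1 and 23.1 FPKM in the cattle-yak and 22.6, 26.1 and 24.4 in the yak, with a 95% interval of the log2 fold change from −0.53 to 0.12. KIF18A, which damps chromosome movements in metaphase, had 7.31, 5.56 and 8.59 FPKM in the cattle-yak and 7.85, 6.91 and 5.89 in the yak, with an interval from −0.37 to 0.45. KIFC1, a minus-end motor that bundles microtubules at the poles and is known to act in spermatids too, had 26.3, 23.1 and 24.1 FPKM in the cattle-yak and 23.3, 25.7 and 25.9 in the yak. The values of KIF23, KIF18A and KIFC1 overlapped between the groups, and the interval of KIFC1, from −0.27 to 0.22, was the narrowest of the 3.

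For the rest of the group, the log2 fold change lay between −0.20 (KIF18B) and 0.68 (the KIF20B gene ENSBGRG00000004917), with 0.14 for KIF22, which binds chromosome arms, and 0.52 for KIF14, which acts in the last step of cytokinesis. Behind the values of that KIF20B gene stood only 10 to 13 fragments in a cattle-yak library and 2 to 7 in a yak library. KIF20B stood on 3 genes, uncertain in how they share reads, of which the most abundant (ENSBGRG00000018400) had 9.31 ± 0.534 FPKM in the cattle-yak and 7.13 ± 0.737 in the yak (SD, n = 3). The motor CENPE, which bears another name and so is not counted among the 52, had 6.88 and 6.43 FPKM and a log2 fold change of 0.08 (limma adjusted p = 0.643). Of 18 partners of the spindle kinesins 5 were called lower (27.8%) and 2 higher (11.1%), from −3.67 for KNSTRN, a kinetochore protein, to 1.81 for MAPRE1, which tracks microtubule plus ends. Of 11 proliferation genes 3 were called higher (27.3%) and 0 lower, with a median of 0.60. Among all tested genes 20.8% were called lower and 33.4% higher.

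**Figure D3:**
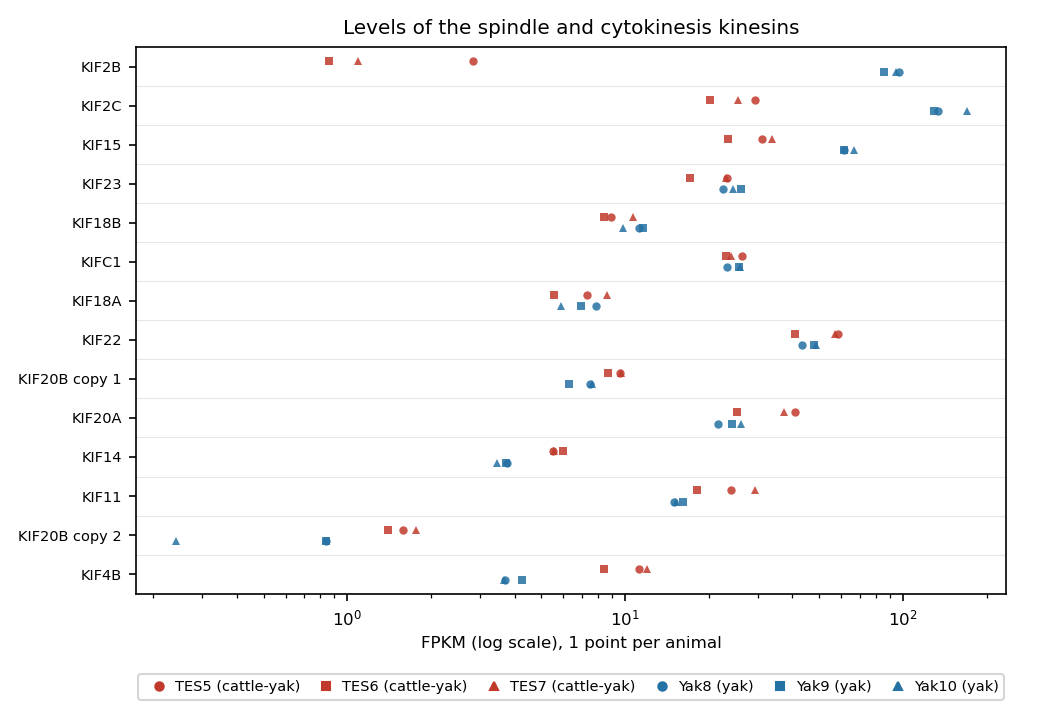
FPKM (log axis) of the tested spindle and cytokinesis kinesin genes in each cattle-yak (red) and yak (blue) animal, ordered by log2 fold change, without the KIF20B gene listed at 0 in Yak10. The groups lie far apart for KIF2B and KIF2C and overlap for KIF23, KIF18B, KIFC1, KIF18A, KIF22 and KIF20A.

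Kinesin-3 motors, which carry vesicles and endosomes, were called higher about as often as all tested genes. KIF1C, a carrier between the Golgi and the cell edge, had 14.8, 16.8 and 14.8 FPKM in TES5, TES6 and TES7 and 6.32, 4.38 and 5.51 in Yak8, Yak9 and Yak10. It was called higher, with a log2 fold change of 1.37 (SE 0.15, limma adjusted p = 4.72e-05), as was KIF13B with 1.10. KIF1B, a carrier of mitochondria and of synaptic vesicle precursors, was the most abundant of the group and had 36.3, 28.7 and 32.3 FPKM in the cattle-yak and 35.5, 29.3 and 30.1 in the yak, with overlapping groups and an interval of the log2 fold change from −0.26 to 0.33. KIF1A, a motor of axons, had 1.83, 1.97 and 2.04 FPKM in the cattle-yak and 4.26, 2.64 and 3.02 in the yak, and the log2 fold change of −0.53 (limma adjusted p = 2.17e-02) was not called. Of the 6 tested genes 2 were called higher (33.3%) and 0 lower, where 33.4% of all tested genes were called higher and 20.8% lower. KIF16B, an endosome motor, was not called at 0.91 but passed 1 without TES6 (1.05), without Yak8 (1.03) and with a pseudocount of 0.1 (1.08).

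Among the other kinesins the related motors KIF21A and KIF21B, which slow the growth of microtubules, moved in opposite directions. KIF21A (ENSBGRG00000012509) had 30.2, 29.3 and 26.3 FPKM in TES5, TES6 and TES7 and 5.38, 3.28 and 5.35 in Yak8, Yak9 and Yak10. This was the largest rise among the tested kinesin genes, 6.13-fold, with a log2 fold change of 2.41 (SE 0.18, limma adjusted p = 4.95e-06), and 1.85 with median-of-ratios scaling. KIF21B (ENSBGRG00000022375) had 61.3, 51.4 and 64.0 FPKM in the yak and 2.16, 3.88 and 2.74 in the cattle-yak. It was 20.1-fold lower, with a log2 fold change of −3.95 (SE 0.18, limma adjusted p = 4.74e-07). KIF21B was thus the more abundant of the pair in every yak and KIF21A in every cattle-yak animal, an order within each library that no scaling between libraries can alter.

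KIF25, a minus-end motor, had 29.4, 16.3 and 22.8 FPKM in Yak8, Yak9 and Yak10 and 2.18, 1.05 and 0.962 in TES5, TES6 and TES7. Relative to its mean, KIF25 varied more between the yak animals than the genes with larger falls did. Its log2 fold change was −3.31 (SE 0.26, limma adjusted p = 6.91e-06). KIFC2, also of the minus-end class, had a log2 fold change of −2.06, with 16.4 ± 1.04 FPKM in the yak and 3.26 ± 1.20 in the cattle-yak (SD, n = 3). KIFC3, the third of this class, had 27.4 ± 3.26 FPKM in the cattle-yak and 27.6 ± 2.68 in the yak, overlapping, with an interval of the log2 fold change from −0.30 to 0.28. KIF26A, a kinesin without motor activity, was called higher at 1.07 from 0.922 ± 0.315 FPKM in yak, but not without TES6 (0.94) or without Yak8 (0.97).

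The 5 kinesin genes that were not tested had too low a mean. They were the second genes with the symbols KIF7 and KIF3C, and KIF12, KIF26B and KIF28P, none of which reached 1 FPKM in any library.

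**Figure D4:**
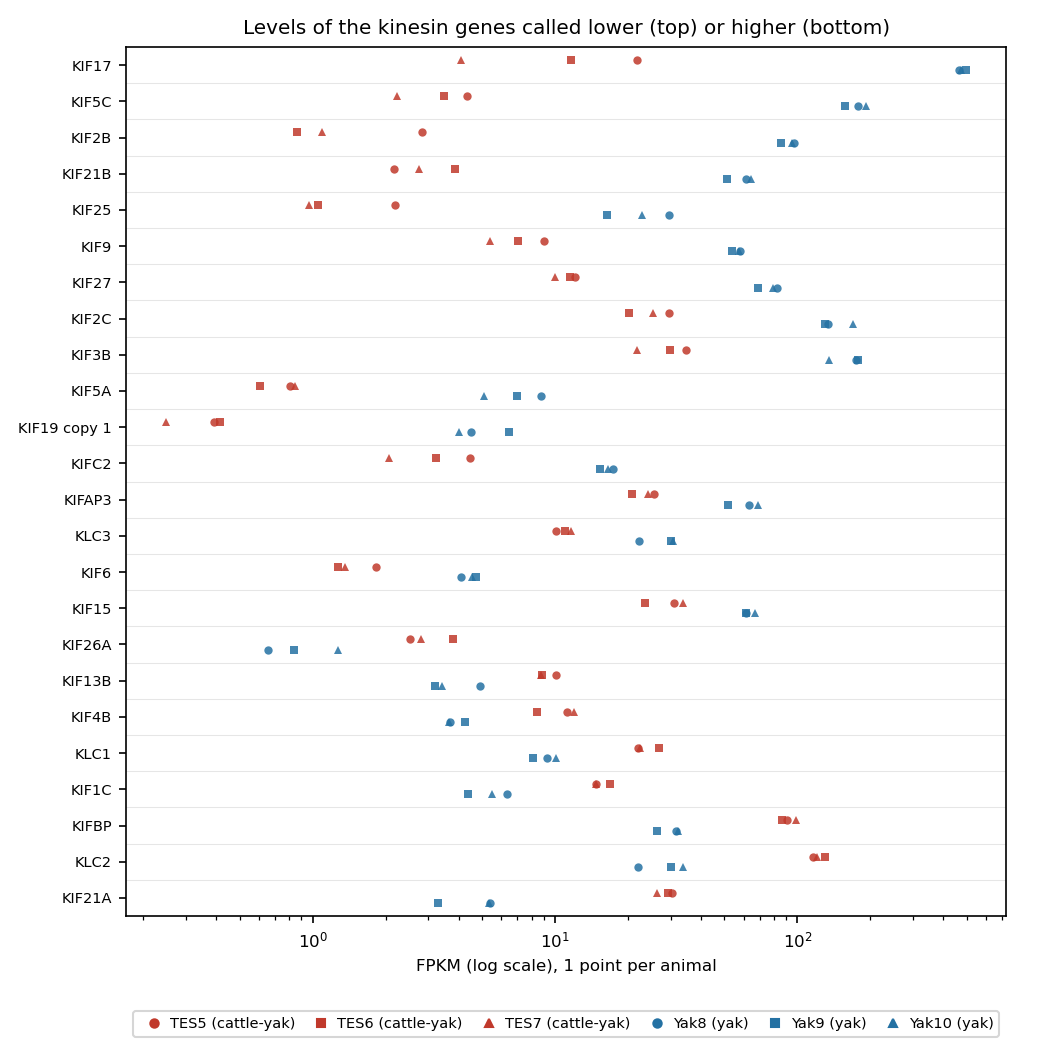
FPKM (log axis) of the 16 kinesin genes called lower (KIF17 to KIF15) and the 8 called higher (KIF26A to KIF21A) in each cattle-yak (red) and yak (blue) animal. The 24 genes were picked by their difference between these same animals, so that their red and blue points do not overlap is no separate result. Of all tested genes, 84.1% did not overlap. The gap is widest for KIF2B, KIF5C and KIF17.

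What remained of the lower genes differed between the cattle-yak animals. As a percentage of the yak mean, KIF17 was left at 4.58% in TES5, 2.44% in TES6 and 0.855% in TES7, and KIF5C at 2.47%, 1.98% and 1.27%. The round spermatid markers together were left at 5.45%, 2.66% and 1.26%. For all of these TES5 stood highest and TES7 lowest. The elongating spermatid markers were left at 0.836%, 0.331% and 0.181%. KIF2B was left at 3.07% in TES5, 0.935% in TES6 and 1.19% in TES7. Of the 16 genes called lower, 11 had their highest cattle-yak level in TES5, 3 in TES7 and 2 in TES6, and 8 had their lowest in TES7, 6 in TES6 and 2 in TES5. All 11 spermatid markers tested were called lower, with a median of −4.91 for round and −7.65 for elongating spermatids, and the part of these cells in the kinesin values was not tested.

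**Figure D5:**
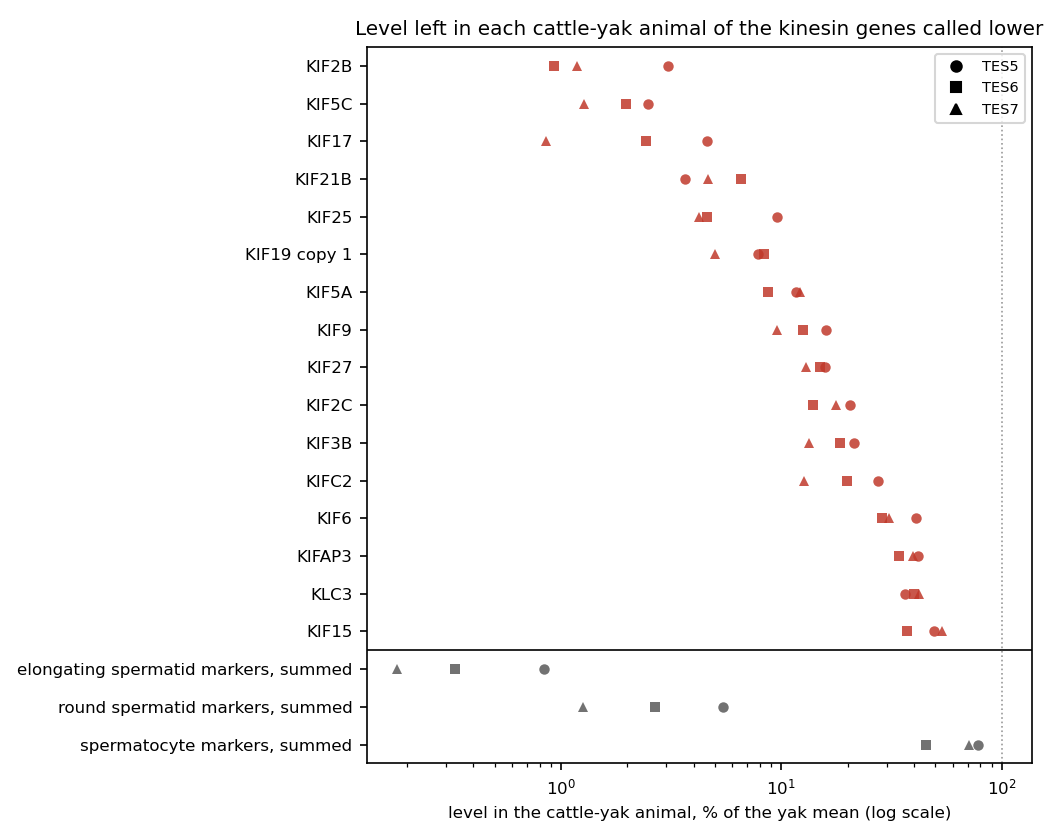
Level in each cattle-yak animal as a percentage of the yak mean (log axis) for the 16 kinesin genes called lower and for the summed markers of 3 germ cell stages. KIF2B, KIF5C and KIF17 lie between 0.855% and 4.58%, the spermatocyte markers between 45.5% and 78.0%.

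The genes called higher moved beside markers of other cells. All 9 Sertoli markers were called higher (median log2 fold change 2.22), as were 6 of 6 Leydig (1.98), 6 of 6 myoid (2.01), 9 of 10 spermatogonia (1.80), 3 of 6 endothelial (0.98, with 1 lower) and 4 of 7 macrophage markers (1.16, with 2 lower). The Leydig list held 7 genes, of which 6 were measured. The paper names WFDC2 among Sertoli and IGFBP3 among Leydig markers as exceptions to the upregulation, and neither is in these lists. KIF21A was the 1 kinesin gene above the Sertoli median. Centring on the Sertoli markers puts every gene that rose less than these markers on average below 0. The other 7 of the 8 genes called higher fell below 0 for this reason, which links them to no cell type. With this centring 39 of all 15042 tested genes were called higher. The spermatocyte markers were mixed, with 2 of 9 lower, 1 higher and a median of −0.29. The part of these cell types in the kinesin values was not tested. For cytoplasmic dynein and dynactin, the motor that runs toward the minus end, 7 of 22 genes were called higher (31.8%) and 4 lower (18.2%). These shares were near the 33.4% and 20.8% of all tested genes. The median was 0.41, from −1.89 for the light chain DYNLRB2 to 1.58 for its paralog DYNLRB1.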

How the data were processed

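Testis RNA of 3 cattle-yak and 3 yak was sequenced as paired-end reads from stranded libraries. The authors trimmed the reads, mapped both groups to the yak genome LU_Bosgru_v3.0 with HISAT2 and, per their methods, calculated the deposited FPKM values with Cufflinks, not scaled between libraries. Mapping to the yak genome can affect reads of the cattle alleles, which was not tested.

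Whole fragments were recovered from the ratios of the values between libraries for 17973 genes. A gene was accepted only if its values lay within 0.03 of a whole number. That 100.0% of the accepted values do so follows from this rule and is no check of the recovery. Levels were compared with limma 3.58.1 (R 4.3.3) on log2 (FPKM + 1), with a variance trend, two-sided, over the 15042 of 18918 genes with a mean of at least 0.5 FPKM. The pseudocount understates changes of low genes. Sums and shares were compared by exact permutation of the animals over all 10 splits. Python 3.11.15, numpy 2.4.6, pandas 2.3.3, scipy 1.17.1 and matplotlib 3.10.9 were used, and the recovery and the limma fit were tested on simulated data.

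Values in every animal are given for the 6 kinesin genes with the largest change in each direction and for a list of transport, ciliary, spindle and KIF1 motors, and the other members by means and counts. KIF21B, KIF25, KIF21A, KLC2, KIFBP and KIF4B are named by the size of their change. The members, the role groups, the partner lists and the marker lists were chosen with earlier results of these data known. Alternatives were pseudocounts, filters, scaling (median-of-ratios, TPM, Sertoli-centred), limma with no trend, no fold threshold, fragments in place of FPKM, leaving out each animal, and voom on the recovered fragments, which was chosen after seeing the data and called 3418 genes lower and 5966 higher. No sequences or gene positions were used here.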

Additional observations from a re-analysis of the deposited data

How the results depend on the processing

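Of the settings tried, the scaling between libraries moved the kinesin results most. With median-of-ratios scaling the median of the tested kinesin genes was −0.62 and 2 genes (KLC2 and KIF21A) were called higher. The sign turned for KIF5B (−0.018), KIF1B (−0.56), KIF11 (−0.023), KIF18A (−0.50), KIF20A (−0.11), the most abundant KIF20B gene (−0.21) and KIF22 (−0.47). Centred on the Sertoli markers, 41 kinesin genes were lower and 0 higher with a median of −2.16 (limma, where KIF21A had 0.27 at an adjusted p of 0.133). Of all 15042 tested genes 10657 were lower with this centring and 39 higher. The sign there turned for KIF7 (−1.62), KIFBP (−0.55), KLC1 (−0.85), KLC2 (−0.054), KIF5B (−1.54), KIF3C (−1.40), KIF13A (−1.45), KIF13B (−1.04), KIF16B (−1.22), KIF1B (−2.10), KIF1C (−0.76), KIF26A (−1.06), KIF11 (−1.57), KIF14 (−1.61), KIF18A (−2.10), KIF20A (−1.65), KIF20B (−1.79, −1.46 and −1.74), KIF22 (−1.996) and KIF4B (−0.90). The 16 genes called lower kept that call under every setting in which they were tested, except KIF15 without TES6, and a minimum of 5 FPKM left 13 of them. In TPM, KIFC3 turned to 0.011. Without the fold threshold 20 kinesin genes were lower and 18 higher, against 4399 and 7916 of all tested genes. Without a filter the kinesin median was 0.013. With 1 animal left out it ran from −0.10 to 0.014, 15 to 16 genes were lower and 8 higher, and values near 0 turned sign, within −0.047 to 0.12 for KIF1B, −0.10 to 0.047 for KIFC3, −0.074 to 0.014 for KIFC1 and −0.087 to 0.19 for KIF18A. With fragments in place of FPKM the difference in share, in percentage points, was 75.7 for KIF5B, −74.0 for KIF5C, 23.8 for KLC1, 18.3 for KLC2, −23.6 for KLC3, −30.4 for KIF2B, 30.4 for KIF2C, −7.71 for KIF1B and 12.5 for KIF1C. Sertoli centring subtracted 1 value per library from every gene, and median-of-ratios scaling divided each library by 1 factor before the pseudocount. The signs that turned under both follow from these steps. The cause of the other moves was not tested, apart from gene length in the shares. No paired analysis was possible because each library came from a different animal, and nothing stated links a cattle-yak to a yak. Low fragment numbers limit the scarce genes, and 3 animals a group limit every exact test to p = 0.1.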
